A study of Oryza sativa with 6 samples.

Results

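The alpha-amylase genes AMY2A, AMY3D and AMY3E were followed in developing rice grains (caryopses) harvested 7 days after flowering. A probe set was taken as a member when the single gene listed for it carried one of these names as its RefSeq symbol or synonym. This gave 4 probe sets of 57194, covering 3 genes of 17905: 1 probe set for AMY2A (LOC4342055), 2 for AMY3D (LOC4345814) and 1 for AMY3E (LOC4345812). Caryopses of the mutant gif1 and of wild-type Zhonghua11, a japonica cultivar, each gave 3 single-colour Affymetrix arrays, 1 per biological repeat. The mutant is named after GIF1 (GRAIN INCOMPLETE FILLING 1), whose product, an invertase of the cell wall, cleaves sucrose outside the cells of the filling grain. The labels do not describe the allele. A whole caryopsis holds starchy endosperm, aleurone, embryo and green pericarp, so fewer cells of a type and less RNA per cell cannot be told apart in these samples. The labels do not say how many caryopses or plants went into a repeat.

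Alpha-amylases cut the internal bonds of starch chains and so open starch to full breakdown. In cereals they are best known from germination, when the aleurone and scutellum secrete them into the endosperm under the control of gibberellin, which acts through the receptor GID1, the repressor SLR1 and the activator GAMYB. Rice carries a small family of these genes in the subfamilies Amy1, Amy2 and Amy3. AMY3D is the best-studied member that sugar starvation induces, through the protein kinase SnRK1A and the MYB factor MYBS1, while sugar represses it. During filling the grain lays starch down, so amylase transcripts at this stage belong to the breaking side of the balance between synthesis and degradation.

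The GIF1 transcript read 173.3, 100.9 and 190.4 in gif1, against 654.2, 428.6 and 607.7 in wild type (deposited signal). This fall, -1.77 with an SE of 0.28, passed (limma adjusted p = 0.00254). The labels do not say whether the lesion lowers this transcript. Differences are given as gif1 minus wild type on the scale log2(signal + 17.7), which understates changes of dim probe sets, and a change was called at a limma adjusted p under 0.05 over 28597 tested probe sets. Of these, 1709 were higher and 1716 lower in gif1. All 17 marker genes of starchy endosperm, green pericarp, aleurone and embryo that were measured read above 17.7 on every array. The arrays also differed by genotype in technical measures. The median signal was 67.5 to 72.6 on gif1 arrays and 83.7 to 103.6 on wild-type arrays, the hybridization spikes differed by -0.50 and the poly-A controls by -2.25 on the log2 scale. A two-sided exact permutation test gave p = 0.1 for each of these 3, the lower limit of the test with 3 arrays a genotype, and their part in the amylase results was not tested.

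AMY2A read lower on every gif1 array than on any wild-type array, AMY3E was nearly level between the genotypes, and AMY3D gave low signals that varied too much between arrays to place. With limma, 0 of the 4 probe sets passed, where 12.0% of all tested probe sets did. An unadjusted limma p under 0.05 was found for 1 of 4 (that of AMY2A), and for 8068 of all 28597 tested probe sets. Genotypes were fully apart for 1 of 4, again AMY2A, and for 33.4% of all tested probe sets, counting both directions.

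AMY3E, a member of the Amy3 subfamily, had signals of 4656.4, 5859.4 and 4618.8 in gif1 caryopses, against 4241.9, 5318.8 and 5019.4 in wild type. The 2 sets of values interleave, with gif1 replicate 2 the highest and wild-type replicate 1 the lowest. The means were 5045 ± 706 in gif1 and 4860 ± 556 in wild type (SD, n = 3 each). The log2 difference of 0.05 (SE 0.13) did not pass, with a limma adjusted p = 0.839 and a 95% interval from -0.24 to 0.34. As a ratio of gif1 to wild type on that scale this is 1.04, with an interval from 0.846 to 1.27. AMY3E also varied least within a genotype among the 4 probe sets, with a coefficient of variation of 14.0% in gif1 and 11.4% in wild type. Its probe set ends in _s_at, a design that can also bind transcripts of related genes, so the signal may not be that of AMY3E alone.

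AMY2A, the sole gene of the Amy2 subfamily in this set, had signals of 420.8, 297.8 and 477.1 in gif1, against 584.8, 565.2 and 1112.9 in wild type. All gif1 arrays lie below all wild-type arrays, and wild-type replicate 3 stands well above the other two. The means were 399 ± 91.7 in gif1 and 754 ± 311 in wild type (SD, n = 3 each). The difference was -0.85 (SE 0.27, 95% interval -1.44 to -0.25), a ratio of 0.557. In the limma fit across all probe sets the unadjusted p was 0.00908 and the adjusted p was 0.0641, so AMY2A did not pass. The exact permutation test gave p = 0.1, the smallest possible here. Groups that did not overlap with gif1 lower were found for 18.3% of all tested probe sets.

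The size of the AMY2A difference leaned on single arrays. Without wild-type replicate 3 it was -0.53 (limma adjusted p = 0.185), and without wild-type replicate 1 it was -0.99 and passed (limma adjusted p = 0.0387). Over the 16 alternatives the difference stayed negative, from -1.01 to -0.36, and the limma adjusted p ran from 0.0311 to 0.350. Wild-type replicate 3 was also the array with the highest summed signal of the 6 measured aleurone and embryo markers. Those sums were 19141, 21497 and 20095 in gif1, against 47618, 45801 and 81719 in wild type. Of these 6 markers 4 fell, 1 rose (OSH1) and 1 did not pass (VP1). On wild-type replicate 3 most of the sum came from Emp1 (51783.6) and rab25 (22700.7). These 2, RAB16B and RAB16C were at their highest on that array. There OSH1 (345.6) had its lowest signal of all arrays, and VP1 (1175.3) its lowest in wild type. The 6 starchy endosperm markers all fell as deposited by their brightest probe sets. Their sums were 312672, 313824 and 278928 in gif1, against 446466, 403849 and 532242 in wild type, again highest on wild-type replicate 3. Of these markers only RAG1 and RAG2 were followed under the alternatives. RAG1 lost its call without an intensity trend (limma adjusted p = 0.0786) and RAG2 lost its call under 5 alternatives. For the marker Wx, the tested probe sets other than the brightest did not pass (limma adjusted p from 0.0999 to 0.200). Of the 5 green pericarp markers 4 rose. The other, CAB2R, did not pass by its brighter probe set (-0.25, limma adjusted p = 0.106). That probe set read lower on every gif1 array than on any wild-type array. The second CAB2R probe set overlapped between genotypes, at 0.15 (limma adjusted p = 0.395). The summed signal of the 5 green pericarp markers was higher in gif1 without overlap. It was 114891, 105324 and 93789 in gif1, against 79974, 75285 and 74776 in wild type. The part of these 3 marker groups in the AMY2A values was not tested.

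**Figure D1:**
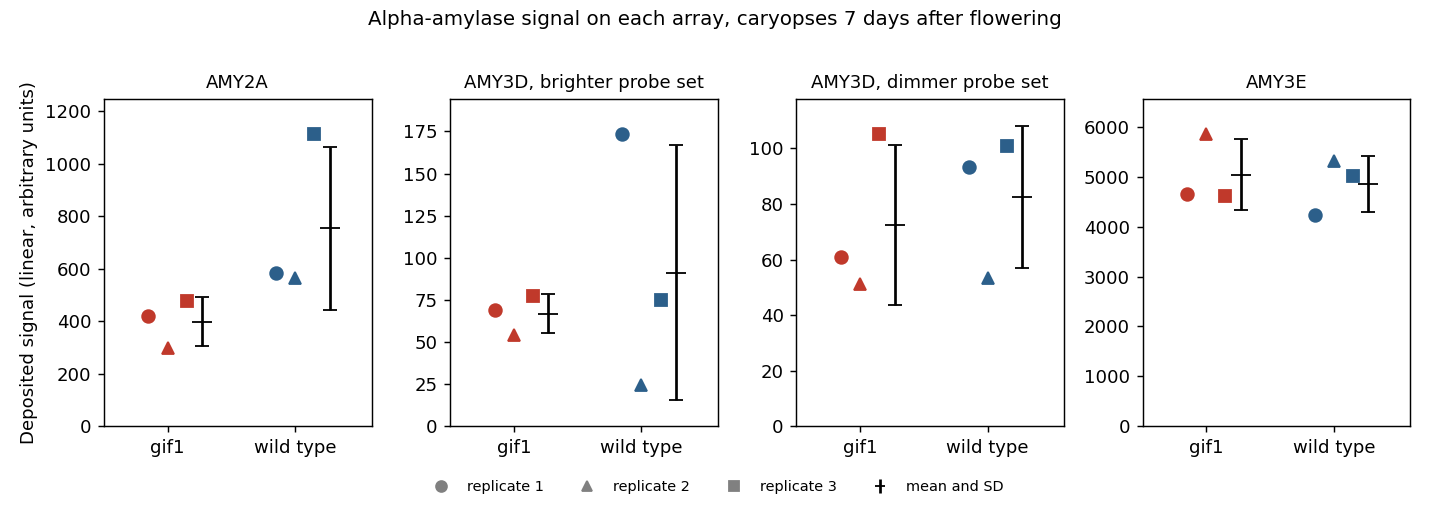
Deposited signal (linear, arbitrary units, each panel from 0) of the 4 alpha-amylase probe sets on the gif1 arrays (red) and the wild-type arrays (blue), with replicate numbers as symbols and the mean and SD of n = 3 as black bars. AMY2A on the gif1 arrays runs from 297.8 to 477.1, all below the wild-type arrays at 565.2 to 1112.9, while AMY3D and AMY3E overlap between genotypes.

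AMY3D was measured by 2 probe sets, and both were dim. The brighter one, with a mean of 79.0 over the 6 arrays, read 68.7, 54.3 and 77.4 in gif1, against 173.5, 24.7 and 75.2 in wild type. The gif1 values lie inside the wild-type range, which spans 7.02-fold from the lowest array to the highest. The second probe set, with a mean of 77.5, read 60.8, 51.2 and 105.2 in gif1, against 93.3, 53.5 and 101.0 in wild type. Both means lie just above 74.1, the lowest mean signal that was tested. In both probe sets replicate 2 had the lowest signal of each genotype, whereas the highest wild-type array was replicate 1 in one and replicate 3 in the other. The differences were -0.12 (SE 0.61, limma adjusted p = 0.923) and -0.17 (SE 0.50, limma adjusted p = 0.862). The 95% interval of the brighter probe set reached from -1.44 to 1.21, a ratio between 0.368 and 2.31. Differences of either sign up to those sizes thus lie within the interval. The coefficient of variation in wild type was 83.0% and 30.9% for the 2 probe sets. In gif1 it was 17.5% and 39.8%.

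The sign and size of these small differences depended on how the arrays were put on a common scale. The deposited signals were scaled to one trimmed mean, and the median difference of all tested probe sets was then -0.06. Centring each array on its median moved that median to 0.28, and scaling to the hybridization spikes moved it to 0.42. AMY3E stood at 0.39 after centring (limma adjusted p = 0.112) and at 0.55 with spike scaling, where it passed as higher in gif1 (limma adjusted p = 0.00727). Its adjusted p over the 16 alternatives ran from 0.00727 to 0.933. AMY2A stood at -0.51 and -0.36 under the same 2 scalings. Centring and spike scaling shift all probe sets of an array together, so values relative to the median of all tested probe sets hardly change with them by construction. Quantile normalization is no such common shift. Relative to that median AMY2A lay at -0.84 with quantile normalization and -0.79 as deposited, and AMY3E at 0.014 and 0.11. Both AMY3D probe sets were positive with quantile normalization, median centring and spike scaling, from 0.16 to 0.28, and did not pass under any alternative.

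**Figure D2:**
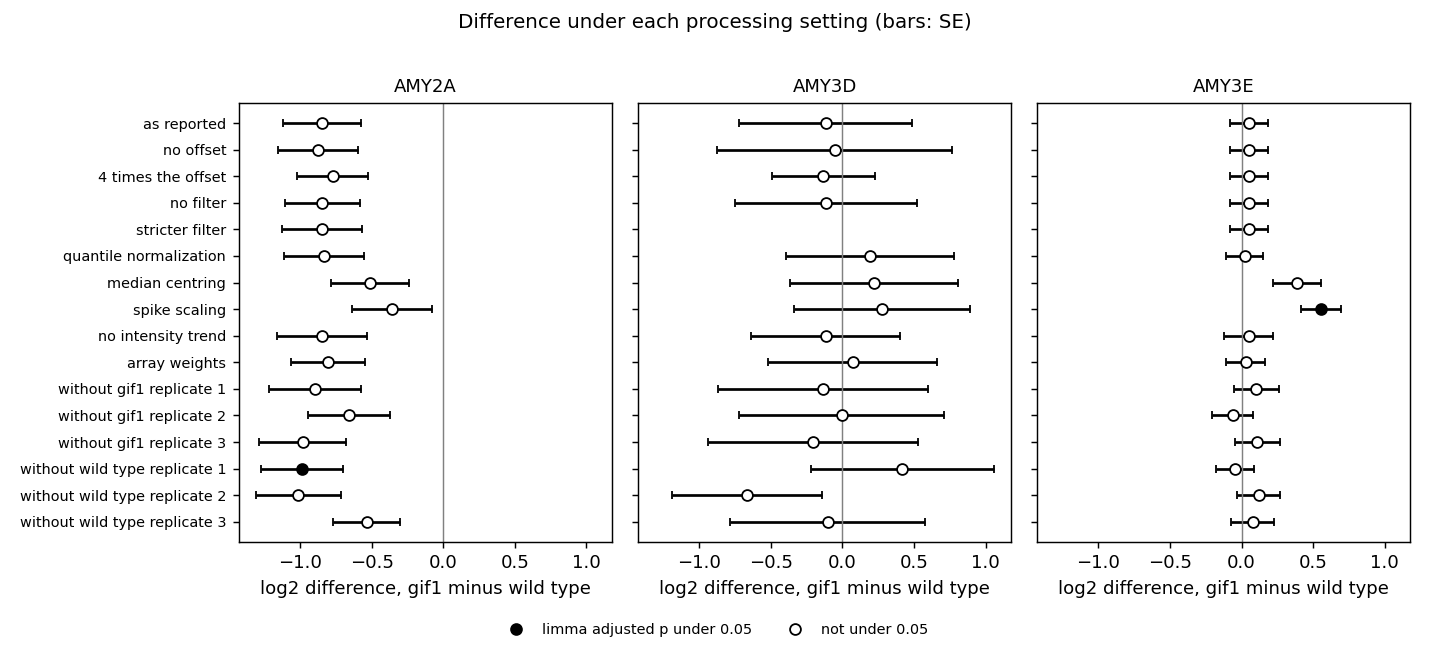
Difference of the brightest probe set of AMY2A, AMY3D and AMY3E (log2, gif1 minus wild type, horizontal axis, bars are SE) under the processing choices named at left; filled points have a limma adjusted p under 0.05. AMY2A lies left of 0 throughout, from -1.01 to -0.36, and AMY3D lies on both sides of 0. AMY3E lies between -0.06 and 0.12 except at 0.39 with median centring and 0.55 with spike scaling. AMY3D has no value under the stricter filter. The replicate block, with which AMY2A also passed (-0.85, limma adjusted p = 0.0311), is not drawn.

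A comparison inside each array does not depend on the scaling between arrays. The log2 signal of AMY2A minus that of AMY3E was -3.47, -4.30 and -3.28 on the gif1 arrays, against -2.86, -3.23 and -2.17 on the wild-type arrays. All gif1 values lie below all wild-type values, though the highest gif1 value and the lowest wild-type value nearly touch. The means were -3.68 ± 0.54 in gif1 and -2.76 ± 0.54 in wild type (SD, n = 3 each), a difference of -0.93, or 1.90-fold lower in gif1. The two-sided exact permutation p was 0.1, the smallest possible, and 0.2 after adjustment over the 4 pairs compared. With 3 arrays a genotype this test could not pass, so it does not settle whether the 2 transcripts differed unequally. AMY2A minus AMY3D overlapped between genotypes (difference -0.82, exact permutation p = 0.4), and so did AMY3D minus AMY3E (difference -0.10, exact permutation p = 0.9). GIF1 minus AMY2A differed by -1.02 without overlap, again at the limit of the test (exact permutation p = 0.1, adjusted 0.2).

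**Figure D3:**
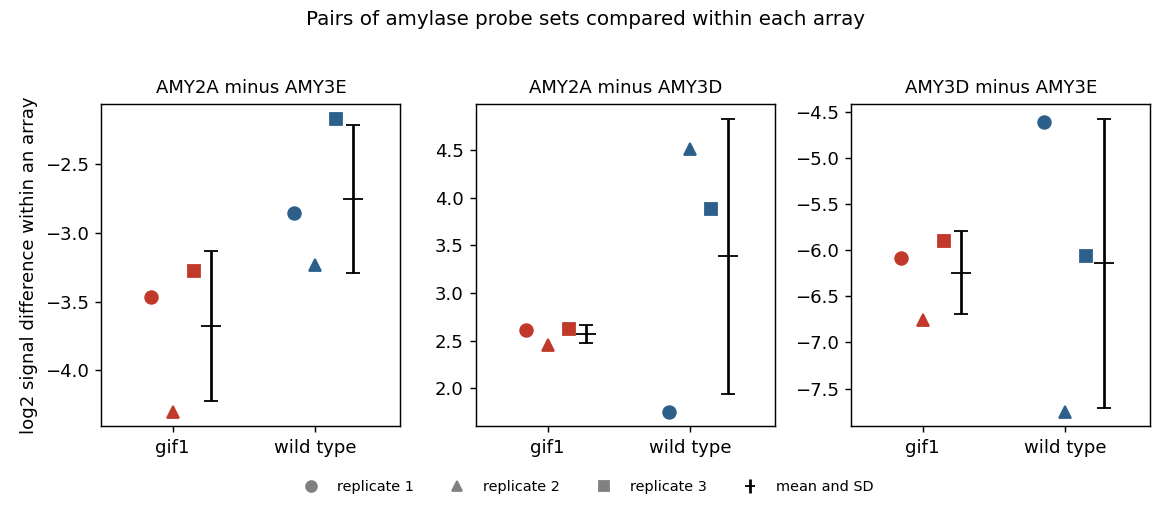
Difference in log2 deposited signal between 2 amylase probe sets on the same array (vertical axis) for gif1 (red) and wild type (blue), with replicate numbers as symbols and the mean and SD of n = 3 as black bars. AMY2A minus AMY3E separates the genotypes, at -4.30 to -3.28 in gif1 and -3.23 to -2.17 in wild type, while both pairs with AMY3D overlap.

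Of the other alpha-amylase genes sought by name, 2 had a probe set, and both were too dim to be tested with the rest. AMY3A (LOC4347262), also of the Amy3 subfamily, read 25.6, 62.9 and 20.6 in gif1, against 107.1, 121.3 and 60.2 in wild type. One gif1 array lies just above the lowest wild-type array, so the groups overlap. In a fit without the signal filter AMY3A did not pass either, at -1.11 with an SE of 0.60 (limma adjusted p = 0.375). AMY1A (LOC4330832), a gene known as a main gibberellin-induced amylase of the germinating grain, read 5.2, 5.8 and 4.3 in gif1, against 14.0, 2.5 and 9.8 in wild type. All 6 values lie under the offset of 17.7, and no fold is given.

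AMY3D and AMY3E are next to each other on chromosome 8 in the RefSeq gene order, with no other protein-coding gene between them. From the lowest to the highest array AMY3E spanned 1.27-fold in gif1 and 1.25-fold in wild type. The brighter AMY3D probe set spanned 1.43-fold in gif1 and 7.02-fold in wild type, and the dimmer one 2.05-fold in gif1 and 1.89-fold in wild type. The gene on the far side of AMY3D, LOC4345815, read 3.5, 57.1 and 30.5 in gif1, against 78.4, 31.8 and 19.8 in wild type, and was too dim to be tested. AMY2A lies on chromosome 6. Its neighbour LOC4342056 differed by -0.05 (SE 0.13), the next gene along, LOC4342057, by -0.12 (SE 0.15), and LOC4342053, the second gene on the other side, by -0.25 (SE 0.27). None of these 3 passed (limma adjusted p = 0.825, 0.651 and 0.588).

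Genes that act with amylases in starch breakdown, that inhibit amylases or that control amylase genes were taken from a list of 98 symbols, many of them other names of the same gene. Of these, 26 genes had a probe set, and 24 were tested by their brightest one. There were 5 higher in gif1, 4 lower and 15 that did not pass. Over all 15423 tested genes 7.92% were higher and 5.63% lower. The median difference of the list was 0.18, beside 0.03 over all tested genes. The split moved with scaling, to 9 higher and 2 lower with median centring and 13 higher and 1 lower with spike scaling, and without an intensity trend in the variance model it was 0 higher and 1 lower. The 21 beta-amylase, 4 debranching enzyme and 4 alpha-glucosidase symbols searched led to 0 probe sets, so these classes are not analysed here.

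Among the genes that act with amylases in starch breakdown, DPE2 rose. This disproportionating enzyme, known from Arabidopsis to process maltose in the cytosol, read 5535.3, 4864.7 and 5097.2 in gif1, against 3635.3, 3803.0 and 3679.3 in wild type, a difference of 0.48 (SE 0.11, limma adjusted p = 0.0170). Every gif1 array lies above every wild-type array, but the call was lost without gif1 replicate 1 or 3 (limma adjusted p = 0.0828 and 0.0656). MEX1, known from Arabidopsis as the plastid maltose exporter, read 859.3, 1147.6 and 1176.9 in gif1, against 762.4, 889.2 and 641.1 in wild type (0.46, SE 0.18, limma adjusted p = 0.120). It passed with median centring (0.80) and spike scaling (0.96). The plastid disproportionating enzyme DPE1 (-0.18, SE 0.18) and the phosphoglucan water dikinase PWD (-0.10, SE 0.19) did not pass, and both turned positive with those 2 scalings.

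Of the 3 amylase inhibitors measured, 2 fell and 1 did not pass, and the difference between them was not tested. RASI, a bifunctional inhibitor of alpha-amylase and subtilisin, read 7434.1, 6117.6 and 5362.4 in gif1, against 6297.9, 5857.5 and 8260.2 in wild type (-0.11, SE 0.15, limma adjusted p = 0.694; 0.40 with spike scaling). The groups overlap. RAG1 and RAG2, seed albumins of the alpha-amylase and trypsin inhibitor family that also serve as endosperm markers, both fell. RAG1 read 18254.5, 16164.3 and 10143.8 in gif1, against 34559.6, 28700.5 and 59491.0 in wild type (-1.43, SE 0.26, limma adjusted p = 0.00526). Without an intensity trend the RAG1 call was lost (limma adjusted p = 0.0786). RAG2 differed by -0.64 (SE 0.13, limma adjusted p = 0.00878). Its call was lost with quantile normalization (-0.12), median centring (-0.30), spike scaling (-0.13), no filter and no intensity trend (limma adjusted p from 0.0646 to 0.449).

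In the sugar arm of amylase control, MYBS1 fell and MYBS2 and SNRK1A rose. MYBS1, the MYB factor that activates AMY3D under sugar starvation, read 224.3, 163.2 and 206.2 in gif1, against 470.8, 415.4 and 423.8 in wild type. The groups lie far apart, with a difference of -1.08 (SE 0.22, limma adjusted p = 0.0103), or -0.61 with spike scaling, where it did not pass (limma adjusted p = 0.0833). MYBS2, a repressor of the same promoters, read 4165.0, 4350.3 and 4200.3 in gif1, against 2997.3, 2365.2 and 1936.9 in wild type, a difference of 0.82 (SE 0.15, limma adjusted p = 0.00640). Its second tested probe set differed by -0.16 (SE 0.25) and did not pass, so the probe sets of MYBS2 disagree. MYBS3, another factor of this group, did not pass (0.17, SE 0.15).

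SNRK1A, the kinase upstream of MYBS1, read 2930.9, 3093.9 and 2992.7 in gif1, against 2077.9, 2074.3 and 2134.8 in wild type. Both groups are tight and do not overlap, with a difference of 0.52 (SE 0.11, limma adjusted p = 0.0142). Its second probe set differed by 0.50 (SE 0.17) and did not pass (limma adjusted p = 0.0844), and leaving out any single gif1 array ended the call of the first (limma adjusted p from 0.0518 to 0.0645). The related kinase genes SNRK1B (-0.30, SE 0.10, limma adjusted p = 0.0763) and OSK3 (-0.28, SE 0.11, limma adjusted p = 0.114) did not pass by their brightest probe sets, which end in _x_at, a design that can bind other transcripts too. One other probe set of each passed as lower, at -0.36 for both, and the brightest of OSK3 passed without wild-type replicate 1 (-0.36, limma adjusted p = 0.0361). A hexokinase gene listed as HXK6 (LOC4326547), of a family that includes glucose sensors, rose by 0.65 (SE 0.15, limma adjusted p = 0.0192). That call was lost without gif1 replicate 1 or 3 or wild-type replicate 2 (limma adjusted p from 0.0640 to 0.0956). A second gene listed under the same name, LOC4338010, differed by 0.32 (SE 0.21), HXK5 by 0.32 (SE 0.16) and the trehalose phosphate phosphatase TPP1 by 0.21 (SE 0.21), and none of these passed.

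In the gibberellin and abscisic acid arm, the gibberellin receptor GID1 fell, reading 1532.1, 1459.3 and 1604.2 in gif1, against 2232.0, 2166.7 and 2213.7 in wild type. The difference was -0.52 (SE 0.12, limma adjusted p = 0.0187), but it was -0.02 with spike scaling, and leaving out any single gif1 array ended the call (limma adjusted p from 0.0569 to 0.0785). The repressor SLR1 (0.30, SE 0.24) and the amylase activator GAMYB (0.18, SE 0.14) did not pass. A gene listed under both GID2 and GF14E rose by 0.69 (SE 0.12, limma adjusted p = 0.00517). The name GID2 is attached to a second gene in the RefSeq table, so this value is not assigned to the gibberellin signalling protein. WRKY51 (0.51, SE 0.25) and WRKY71 (-0.04, SE 0.30), repressors of gibberellin-induced amylase genes, did not pass. VP1, a factor of abscisic acid response, was at -0.73 (SE 0.23) and missed the threshold (limma adjusted p = 0.0636), but passed with array weights (-0.79, limma adjusted p = 0.0497) and without gif1 replicate 2 (-0.99, limma adjusted p = 0.0246). With spike scaling MYBS3, WRKY51, HXK5, GAMYB, SLR1, TPP1 and LOC4338010 passed as higher, from 0.67 to 0.98, and the first 3 of these also passed with median centring. AMY2A itself stood at -0.85 on these arrays, the poly-A controls at -2.25, and the part of either in these values was not tested.

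**Figure D4:**
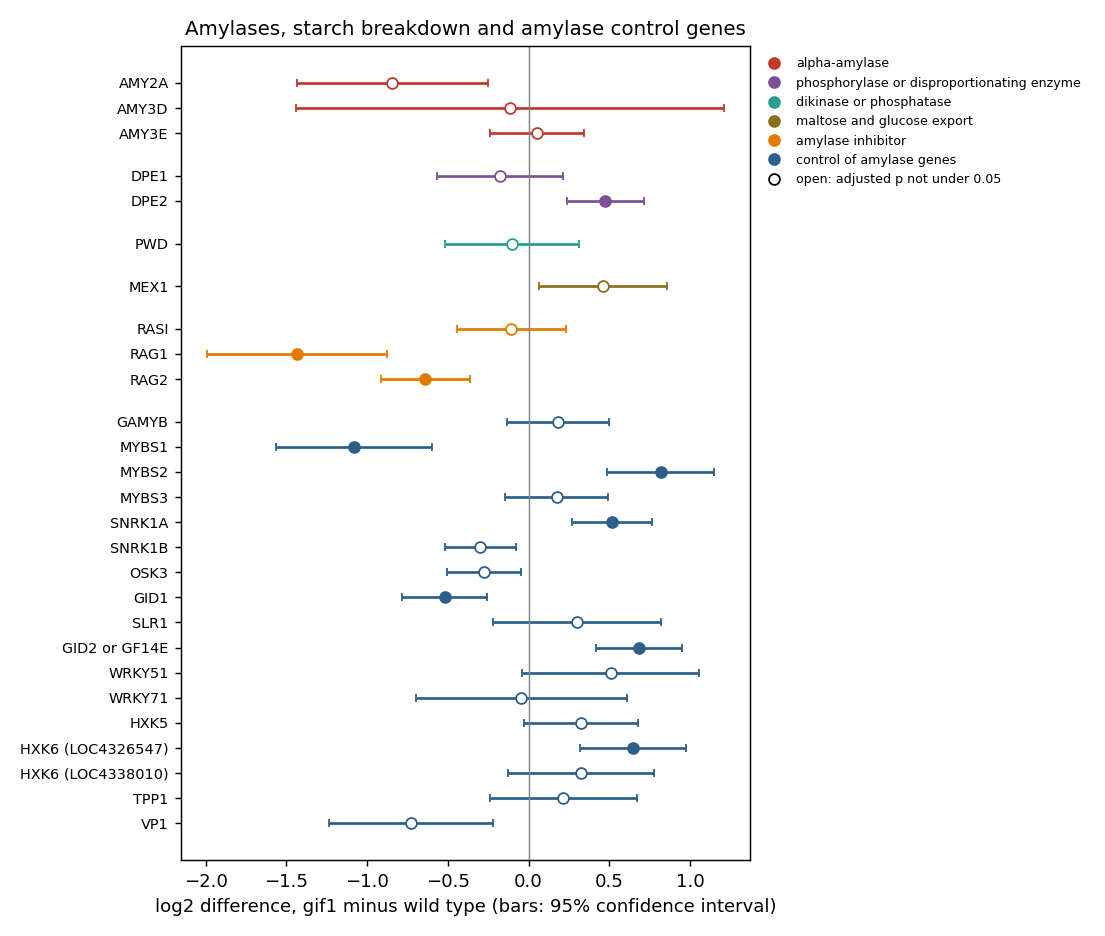
Difference between genotypes (log2, gif1 minus wild type, horizontal axis) with its 95% confidence interval for the brightest probe set of AMY2A, AMY3D and AMY3E and of the 24 tested genes of starch breakdown, amylase inhibition and amylase control, coloured by class; filled points have a limma adjusted p under 0.05. MYBS1, GID1, RAG1 and RAG2 lie left of 0 as filled points, and DPE2, MYBS2, SNRK1A, the gene listed as GID2 or GF14E and HXK6 (LOC4326547) lie right of it.

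Few genes carry a RefSeq symbol of their own, and 82 probe sets of such genes were searched for patterns like those of the amylases over the 6 arrays. For AMY2A the closest were AT9 (Pearson r = 0.92), PP2C68 (0.83) and MFT2 (0.82). PP2C68, a type 2C protein phosphatase, read 658.9, 438.4 and 507.2 in gif1, against 965.3, 726.2 and 982.3 in wild type, and fell by 0.72 on the log2 scale (limma adjusted p = 0.0359). MFT2, of the family of MOTHER OF FT AND TFL1, fell by 0.88 (limma adjusted p = 0.0299), while AT9 differed by -0.29 and did not pass. For AMY3E the closest were TPR3 (0.74), GLYI-11 (0.72) and KIN4A (0.66), and for AMY3D the chaperone gene BIP1 (0.74), cob (0.72) and XAT2 (0.69), none of which passed. These correlations describe 6 arrays that share 2 genotypes and carry no test.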

How the data were processed

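Total RNA of caryopses was biotin-labelled and hybridized to 6 arrays. Each probe set has 1 deposited intensity on each array, linear and in arbitrary units. The submitters' processing notes name GCOS 1.4; its settings were not stated. The arrays share one mean (500.1) once 2% is trimmed from both tails. Columns were matched by sample (0 left unmapped). Of 57381 probe sets 187 controls were left out. The 25th percentile, 17.7, was added before taking log2, and the 28597 probe sets with a mean of at least 74.1 were tested with limma 3.58.1 (R 4.3.3; lmFit, eBayes with an intensity trend, genotype as the only term, Benjamini-Hochberg adjustment, threshold 0.05), a fit tested on simulated data. Single values were compared by exact permutation tests (scipy 1.17.1). No detection calls were used, and the number of arrays limits the precision. Genes were named through the platform annotation and the RefSeq table of assembly ASM3414082v1; no coordinates are printed, since the labels name no build for the arrays. A gene with several probe sets is represented by the brightest.

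The members and lists were chosen with earlier results of these data known. Named are all member probe sets, tested genes of the pathway list, and the 3 genes most like each member. A further 19 alpha-amylase symbols were searched, some of them other names of the members or of each other. They matched 3 further genes, of which 2 had a probe set. Alternatives covered the offset, the signal filter, scaling between arrays, the variance model, a replicate block and leaving out each array. Nothing says that the repeats came from separate plants or batches beyond the words biological repeat, so p-values measure the spread between these arrays.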

Additional observations from a re-analysis of the deposited data

How the results depend on the processing

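Among the amylases the call of AMY2A depended on the replicate block (-0.85, limma adjusted p = 0.0311, passing) and on single arrays (-1.01 to -0.53 when each was left out, passing 1 time in 6). Nothing in the labels ties equal replicate numbers together. Same-numbered arrays correlated at -0.03, 0.02 and -0.05 in their deviations from the genotype means. With 3 arrays a genotype these values cannot show whether the samples were paired. The block moved no other amylase across the threshold and, of the list, only VP1 (-0.73, limma adjusted p = 0.0182, passing). It gave 1436 higher and 1394 lower probe sets. AMY3E passed with spike scaling alone (0.55), and ran from -0.061 to 0.12 over the left-out arrays, negative without gif1 replicate 2 (-0.061) or wild-type replicate 1 (-0.04). The brighter AMY3D probe set was positive with quantile normalization (0.19), median centring (0.22), spike scaling (0.28) and array weights (0.072), and ran from -0.67 to 0.42 over left-out arrays. The dimmer one was positive with the 3 scalings (0.16, 0.17 and 0.24) and ran from -0.41 to 0.0048. Neither AMY3D probe set was bright enough for the stricter filter. The causes were not tested.

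Over all probe sets, median centring gave 5817 higher and 613 lower, spike scaling 9576 and 480, no intensity trend 368 and 416, and no filter 1122 lower; leaving out arrays gave 727 to 2289 higher and 709 to 2005 lower. For the pathway list these were 9 and 2, 13 and 1, and 0 and 1, with 2 to 5 higher and 3 to 5 lower over left-out arrays. Of the list genes, 6 changed sign: with median centring and spike scaling DPE1 (0.16 and 0.32), PWD (0.23 and 0.39), RASI (0.23 and 0.40), SNRK1B (0.037 and 0.20), OSK3 (0.060 and 0.23) and WRKY71 (0.29 and 0.42; 0.16 with quantile normalization), and over left-out arrays PWD (-0.26 to 0.0063), RASI (-0.23 to 0.041) and WRKY71 (-0.24 to 0.16). Over the 25 single genes of the list and GIF1, 338 alternative values kept direction and side of the threshold, 26 lost and 16 gained a call, and 18 changed sign. Dim signal limits AMY3D, AMY3A and AMY1A, which the fit cannot place at 3 arrays a genotype.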

Other observations

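When genes named only through a RefSeq synonym were added to the search for like patterns, an addition decided on with the values in view, 2401 probe sets were compared with each amylase over the 6 arrays. The closest to AMY2A were HSP18.0 (Pearson r = 0.99), D3 (0.98) and OsCASPL2B1 (0.98), to AMY3D GLR3.1 (0.99), GRXS9 (0.98) and FH15 (0.97), and to AMY3E IAA6 (0.97), BBD1 (0.96) and HPT1 (0.94). HSP18.0 read 917.8, 870.0 and 980.3 in gif1, against 1068.5, 1055.2 and 1261.7 in wild type, a difference of -0.28 that did not pass (limma adjusted p = 0.234). None of the other 8 passed either. With this many probe sets and 6 arrays, values of this size carry no test.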
